A study of Homo sapiens with 20 samples.

Results

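The CXC chemokines and their receptors were followed here through 8 genes: the ligands CXCL8, CXCL1, CXCL2, CXCL3, CXCL10 and CXCL16 and the receptors CXCR2 and CXCR4. Every probe set whose only gene symbol in the array annotation was 1 of these 8 was read on its own, since the probe sets of CXCL8 disagree, which gave 13 probe sets for 8 of the 19775 genes with such a probe set. Of the 13 probe sets, 12 passed the intensity filter of the study's methods, a mean log2 intensity of at least 3, and all 8 genes had at least 1 probe set that passed. The values are log2 intensities on Affymetrix HG-U133 Plus 2.0 arrays, so that a difference of 1 is a 2-fold change in signal. The signals of different probe sets are not read against each other as amounts of mRNA.

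The arrays came from 4 cell lines derived from U937, a human myeloid cell line. The EVI1 clones E10 and E14 carry an HA-tagged human EVI1 cDNA, a transcription factor gene of the MECOM locus. Tetracycline (tet) represses this cDNA and tet withdrawal turns it on. The control lines were the empty vector clone P2 and the parental line U937T. Each of E10, E14 and P2 is a single clone, all 4 lines grew in puromycin, and E10, E14 and P2 grew in hygromycin as well. The 16 arrays of E10 and E14 were taken 6, 12, 24 and 48 h after cells had been washed and put into medium without or with tet, and the 4 arrays of P2 and U937T were taken at 48 h without or with tet. There was 1 array for each line, time and medium. The p-values rest on 1 estimate of the spread for each probe set, pooled over all groups, most of whose arrays are of E10 and E14. Constant differences between lines were taken out first, except where EVI1 clones and control lines were compared with tet. The spread is thus not that of any group or time alone. No array of a control line at 6, 12 or 24 h was analysed here. At these earlier times an effect of EVI1 and an effect of tet withdrawal itself cannot be told apart.

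CXC chemokines are small secreted proteins that guide leukocytes along a gradient by binding G protein coupled receptors. CXCL8, CXCL1, CXCL2 and CXCL3 share a short amino-terminal motif, bind CXCR2 and attract neutrophils, and in monocytic cells their genes are known as rapid targets of NF-kB and AP-1 whose mRNAs are unstable. CXCL10 is an interferon-induced ligand of CXCR3, and CXCL16 is made as a membrane protein that proteases shed. CXCR4, the receptor for CXCL12, is known for holding hematopoietic and leukemic cells in the bone marrow.

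The sequences before the transcription starts are shown because CXCL8, CXCL1, CXCL2, CXCL3 and CXCL10 all lie on chromosome 4 and carry a common element. RefSeq windows (GRCh38.p14) were matched for 7 of the 8 genes, 9 windows in all, and the 250 bases before each start were searched on both strands. The letters GGAATTTCC were found in all 5 ligand genes with a window, CXCL8, CXCL1, CXCL2, CXCL3 and CXCL10, and in 0.413% of the 35116 windows of the table. The full NF-kB consensus, searched by its name, overlaps these letters in CXCL1, CXCL2, CXCL3 and CXCL10 and was found in 9.96% of all windows. CXCL10 held a further match to it and CXCL8 none. The AP-1 letters TGACTCA (4.2% of all windows) were found in CXCL8, and TATAAA (10.7% of all windows) in CXCL8 and in 1 of the 3 windows of CXCR4, where matches on both strands overlap. The letters GACAAGATA, which EVI1 is known to bind, were in none of the 9 windows and in 0.0854% of all windows. At so low a share, absence from 9 windows says little, and other EVI1 consensus sites were not searched. The last 150 bases before the start are given for CXCL8 at chr4:73740419-73740568 (plus strand), CXCL1 at chr4:73869243-73869392 (plus strand), CXCL2 at chr4:74099196-74099345 (minus strand), CXCL3 at chr4:74038690-74038839 (minus strand), CXCL10 at chr4:76023498-76023647 (minus strand) and CXCR4 at chr2:136118150-136118299 (minus strand). Capitals mark the matches named above, and overlapping matches run together.
CXCL8: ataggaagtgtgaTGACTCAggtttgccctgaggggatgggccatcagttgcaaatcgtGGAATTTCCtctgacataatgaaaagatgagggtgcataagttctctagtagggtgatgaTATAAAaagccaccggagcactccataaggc
CXCL1: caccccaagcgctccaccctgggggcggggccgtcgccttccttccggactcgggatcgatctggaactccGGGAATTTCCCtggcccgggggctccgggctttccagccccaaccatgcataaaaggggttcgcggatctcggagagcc
CXCL2: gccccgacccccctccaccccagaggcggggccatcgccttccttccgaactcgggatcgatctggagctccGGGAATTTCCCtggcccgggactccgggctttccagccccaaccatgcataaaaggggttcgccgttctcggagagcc
CXCL3: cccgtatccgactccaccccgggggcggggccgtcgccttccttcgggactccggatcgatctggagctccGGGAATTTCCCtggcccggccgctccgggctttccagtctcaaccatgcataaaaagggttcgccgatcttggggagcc
CXCL10: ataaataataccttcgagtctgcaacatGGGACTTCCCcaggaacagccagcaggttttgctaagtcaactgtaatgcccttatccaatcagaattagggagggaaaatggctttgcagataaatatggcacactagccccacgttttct
CXCR4: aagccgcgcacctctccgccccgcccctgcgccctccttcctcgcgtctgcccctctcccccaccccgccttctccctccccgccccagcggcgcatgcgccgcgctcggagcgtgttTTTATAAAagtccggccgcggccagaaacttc
In CXCL8 the AP-1 letters lie 137 to 131 bases, GGAATTTCC 91 to 83 bases and TATAAA 31 to 26 bases before the start. In CXCL1 and CXCL3 GGAATTTCC lies 78 to 70 bases before the start and in CXCL2 77 to 69 bases, whereas in CXCL10 it lies on the other strand 176 to 168 bases before the start, outside the stretch shown. A match to these letters is a description of the sequence and was not set against any measurement of binding.

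Induction itself was read from the 1 probe set of MECOM that responded, 221884_at, while the other 4 lay between 2.38 and 3.68. It lay between 8.52 and 10.51 in the EVI1 clones without tet and between 7.06 and 7.34 with tet, and between 5.91 and 6.53 in the control lines without tet and 6.48 and 6.90 with tet, so that every clone was higher without tet at every time. With tet the clones still lay above every control array, and whether some EVI1 was expressed with tet was not tested. Of the myeloid markers, the genes LYZ, CEBPA, CD4 and SPI1 had median log2 intensities of 11.98, 11.53, 10.19 and 9.54 over the 20 arrays. CSF1R, MPO, CD14 and FCGR1A had medians of 7.54, 4.97, 4.11 and 3.52. The medians of 5 lymphoid markers lay between 4.28 (MS4A1) and 7.85 (CD79A), of 4 erythroid and megakaryocyte markers between 4.63 (ALAS2) and 6.64 (GP9), and of 5 epithelial and fibroblast markers between 2.95 (EPCAM) and 5.34 (DCN). The remaining myeloid marker, ITGAM (CD11b), which is known to rise as myeloid cells mature, moved with tet in all lines. At 48 h it lay between 10.21 and 10.53 in the EVI1 clones without tet and between 5.05 and 5.14 with tet, and between 9.37 and 9.58 in the control lines without tet and 5.54 and 5.58 with tet. Its change was 5.27 in the EVI1 clones and 3.92 in the control lines, and 2.72 in the EVI1 clones at 24 h (adjusted p = 5.16e-10, 8.56e-08 and 8.04e-07 from limma). Of the other 8 myeloid markers, CD4 and CSF1R were higher in the EVI1 clones at 48 h and SPI1 lower at 24 h, and of the lymphoid markers CD3E and CD79A were higher at 48 h. The part of these changes in the results below was not tested. The medians of the arrays lay between 5.25 and 5.35. The difference of 3′ and 5′ control probe sets, a measure of RNA integrity in which a higher value stands for more degraded RNA, was 1.40 without tet and 1.52 with tet in E14 at 24 h, and 0.46 without tet and 1.02 with tet in E14 at 12 h, against 0.19 to 1.06 on the other 16 arrays.

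By its probe set 202859_x_at, CXCL8 was the first member called and had the largest called difference between media, whereas its other probe set was not called between media at any time. CXCL8 encodes interleukin 8, the main human neutrophil chemokine, and is covered by 2 probe sets, 202859_x_at (median 7.02) and 211506_s_at (median 4.91). At 6 h, 202859_x_at read 8.39 in E10 and 8.72 in E14 without tet, against 7.99 in E10 and 8.72 in E14 with tet. The cultures had about the same high level, and the difference of 0.20 (95% confidence interval -0.13 to 0.53) did not pass the test. No member was called at 6 h (adjusted p under 0.05, limma), as was no probe set of the 35610 tested (0%). An unadjusted p under 0.05 was held by 1 of 12 member probe sets, 211506_s_at of CXCL8, and by 1518 of the 35610.

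At 12 h CXCL8 was lower without tet by 202859_x_at, which read 6.68 in E10 and 6.71 in E14, against 7.54 in E10 and 8.18 in E14 with tet. Both clones without tet lay below both with tet. In RNA of a whole culture, fewer cells with an mRNA and less of it per cell cannot be told apart. The log2 change of -1.17 (standard error 0.15, adjusted p = 0.0215 from limma), a 2.25-fold fall, was 1 of only 8 changes called among 35610 probe sets at this time (0.0225%). The other called probe sets were those of MECOM, NBEA (2 probe sets), ATP1B1 and PIP4P2, which rose, and INHBA (2 probe sets), which fell. The change was -0.86 in E10 and -1.47 in E14. The call was lost without the line as a block (adjusted p = 0.518), without the E14 arrays at 12 and 24 h (adjusted p = 1, change -0.86), without clone E10 (adjusted p = 0.0584) and without clone E14 (adjusted p = 1), the last 2 with 1 residual degree of freedom left, all from limma.

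At 24 h the difference was called again. The probe set 202859_x_at read 5.29 in E10 and 5.55 in E14 without tet, the lowest values of CXCL8 on any array for this probe set, against 6.75 in E10 and 6.94 in E14 with tet. The clones differed between media by nearly the same amount, -1.46 in E10 and -1.39 in E14. The log2 change was -1.43 (standard error 0.15, adjusted p = 6.88e-05 from limma), a 2.69-fold fall, and it stayed called under all 12 alternatives, with adjusted p between 1.55e-05 and 0.0147.

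At 48 h the difference was gone. The same probe set read 6.75 in E10 and 7.03 in E14 without tet, against 6.50 in E10 and 7.01 in E14 with tet, a change of 0.14 (95% confidence interval -0.19 to 0.47). In the control lines it read 7.22 in P2 and 7.28 in U937T without tet, against 6.74 in P2 and 7.06 in U937T with tet, a change of 0.34 (95% confidence interval 0.01 to 0.68) that was not called (adjusted p = 0.239 from limma). Between 24 and 48 h the level rose in the cultures without tet by 1.46 in E10 and 1.49 in E14, whereas in those with tet it differed by -0.25 in E10 and 0.07 in E14. The response at 48 h minus that at 24 h, a comparison added after the values had been seen, was 1.57 (standard error 0.22, adjusted p = 0.00327 from limma). It was the only one of 12 member probe sets called in this comparison, against 1.63% of all probe sets. Without clone E10 it was 1.42 (adjusted p = 0.362) and without clone E14 1.71 (adjusted p = 0.13), with 1 residual degree of freedom.

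**Figure D1:**
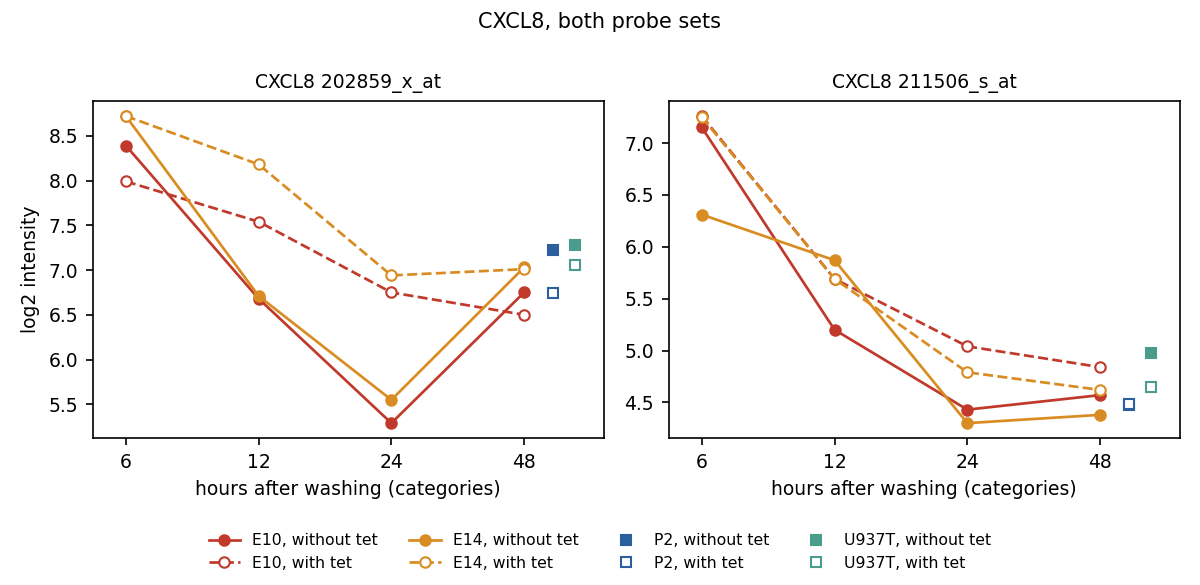
Log2 intensity of both CXCL8 probe sets (vertical axes, of different ranges) by hours after washing (horizontal axis, evenly spaced categories), 1 point an array, filled without tet and open with tet. Circles joined by lines are the EVI1 clones E10 and E14 and squares at 48 h the control lines P2 and U937T. For 202859_x_at the clones without tet dip to 5.29 and 5.55 at 24 h and meet those with tet again at 48 h, and 211506_s_at declines in all cultures.

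The other probe set of CXCL8 gave a different course. At 12 h, 211506_s_at read 5.20 in E10 and 5.87 in E14 without tet, against 5.69 in each clone with tet, so that the clones moved in opposite directions. Its change of -0.16 (95% confidence interval -0.67 to 0.35) lay outside the interval of 202859_x_at at that time, -1.50 to -0.83. At 24 h it read 4.43 in E10 and 4.30 in E14 without tet, against 5.04 in E10 and 4.79 in E14 with tet, and both clones without tet were again below both with tet. The log2 change was -0.55 (standard error 0.24), with an adjusted p of 0.176 from limma. At 48 h it read 4.57 in E10 and 4.38 in E14 without tet, against 4.84 in E10 and 4.62 in E14 with tet, a change of -0.25 (95% confidence interval -0.76 to 0.26). Both probe sets nevertheless went up and down together over the 20 arrays, with a Pearson correlation of 0.84 after centring on each line's mean, a description over arrays that share lines and times. A probe set named with x may hold probes that also match other transcripts, and which of the readings follows the CXCL8 mRNA more closely was not tested.

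CXCL1, CXCL2 and CXCL3, the closest relatives of CXCL8 among the members, were read low on these arrays. CXCL1 lay between 2.98 and 3.69 on all 20 arrays and CXCL3 between 3.98 and 4.64. Neither was called in any of the 11 comparisons. For CXCL1 the change at 24 h was 0.19 (95% confidence interval -0.22 to 0.60), and for CXCL3 it was -0.29 (95% confidence interval -0.65 to 0.07). At signals this low a fall of the mRNA may not have been detectable.

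CXCL2 had 3 probe sets that did not move together, with Pearson correlations between -0.05 and 0.10 over 20 arrays centred on each line's mean. The probe set 230101_at lay between 2.65 and 3.15 and was the 1 member probe set that did not pass the filter, and 1569203_at lay between 3.52 and 3.89. The brightest of them, 209774_x_at, read 4.27 in E10 and 3.76 in E14 without tet at 48 h, against 4.40 in E10 and 4.71 in E14 with tet. Both clones were lower without tet, but by unequal amounts, -0.13 in E10 and -0.94 in E14. In the control lines it read 4.93 in P2 and 4.58 in U937T without tet, against 4.61 in P2 and 4.53 in U937T with tet, so that both were slightly higher without tet. The change in the EVI1 clones was -0.53 (limma, standard error 0.16, adjusted p = 0.0268), and its difference from the control lines was -0.72 (limma, standard error 0.23, adjusted p = 0.131). Without clone E14 the change was -0.13 (adjusted p = 0.834), and the call was also lost with the arrays at 48 h alone (adjusted p = 0.0931) and without the E14 arrays at 12 and 24 h (adjusted p = 0.0647), all from limma.

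CXCL10, the interferon-induced ligand, did not follow tet at any time but was high at the earliest one. At 6 h it read 4.80 in E10 and 5.43 in E14 without tet, against 4.90 in E10 and 6.10 in E14 with tet, and from 12 h on all arrays lay between 3.86 and 4.52. At 48 h the response of the EVI1 clones less that of the control lines, called the EVI1-specific response, was -0.01 (95% confidence interval -0.83 to 0.80). Of 16 other interferon response genes 12 were measured. In the control lines, which have no EVI1 transgene, 7 of the 12 were higher without tet and 0 lower, against 4.01% and 3.64% of 17860 genes with 1 probe set each (limma), and their median change was 0.65, against -0.02 over all genes. In the EVI1-specific response 7 of the 12 were higher and 0 lower, against 1.66% and 2.11% of all genes (limma), and their median was 1.15, against 0 over all genes. The antiviral effector IFIT1 rose by 2.26 (adjusted p = 0.000195 from limma) and IFIT2 by 1.61 (adjusted p = 0.0136 from limma) beyond the control lines.

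CXCL16 lay between 4.47 and 5.22 and was called in none of the comparisons. In the control lines it read 5.22 in P2 and 5.00 in U937T without tet, against 4.93 in P2 and 4.53 in U937T with tet, a change of 0.38 (95% confidence interval 0.03 to 0.72) with an adjusted p of 0.211 from limma. In the EVI1 clones at 48 h its change was 0 (95% confidence interval -0.34 to 0.35).

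**Figure D2:**
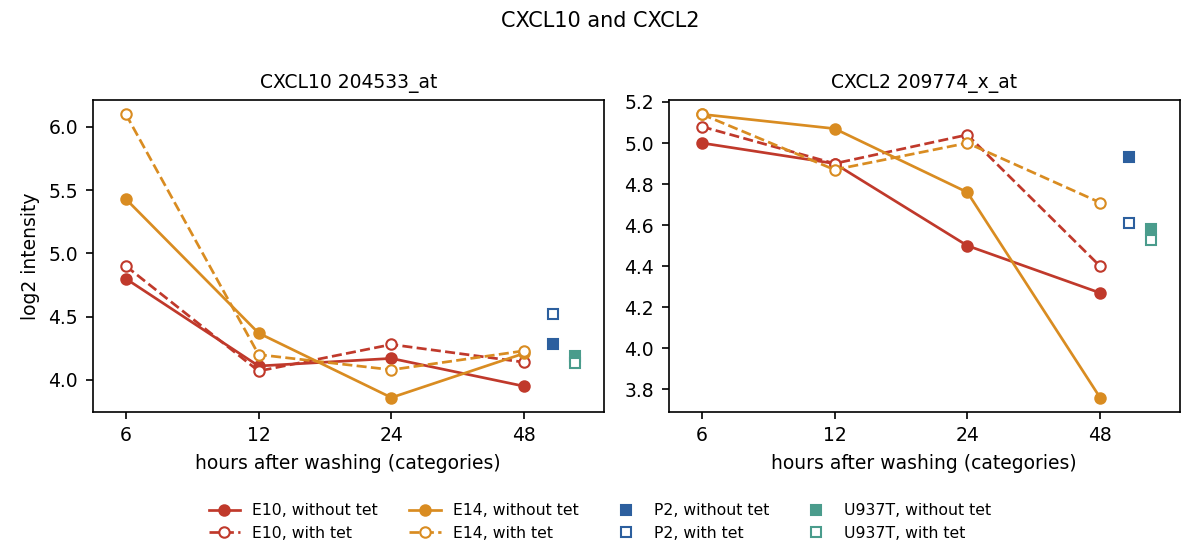
Log2 intensity of CXCL10 and of the brightest CXCL2 probe set (vertical axes, of different ranges) by hours after washing (horizontal axis, evenly spaced categories), 1 point an array, filled without tet and open with tet, circles for the EVI1 clones and squares for the control lines. CXCL10 is highest at 6 h in every culture of the clones, and the low CXCL2 point at 48 h, 3.76, is E14 without tet.

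Of the receptors, CXCR4 fell in the EVI1 clones and CXCR2, the receptor for CXCL8 and its relatives, did not pass the test. CXCR2 lay between 7.60 and 8.18 on all arrays. At 48 h it read 7.64 in E10 and 7.60 in E14 without tet, against 7.67 in E10 and 7.84 in E14 with tet. The control lines read 8.18 in P2 and 8.12 in U937T without tet, against 7.98 in P2 and 7.89 in U937T with tet. Both clones were thus slightly lower and both control lines slightly higher without tet, and the EVI1-specific response was -0.36 (95% confidence interval -0.72 to -0.01) with an adjusted p of 0.337 from limma.

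CXCR4 has 3 probe sets, 217028_at, 211919_s_at and 209201_x_at, with medians of 11.55, 9.64 and 9.42. At 24 h, 217028_at read 11.04 in E10 and 11.12 in E14 without tet, against 11.68 in E10 and 11.82 in E14 with tet. The clones without tet were at their lowest for this probe set, and the change was -0.67 (standard error 0.12, adjusted p = 0.00226 from limma). At 24 h, 209201_x_at read 9.11 in E10 and 8.85 in E14 without tet, against 9.83 in E10 and 9.40 in E14 with tet, and its change was -0.64 (limma, standard error 0.17, adjusted p = 0.0262). The remaining one, 211919_s_at, changed by -0.64 as well, with an adjusted p of 0.0622. All 3 probe sets showed the lower level in both clones at 24 h. At 12 h, by contrast, 211919_s_at and 209201_x_at were 0.55 and 0.57 lower without tet in E10 and 0.32 and 0.15 higher in E14. The third, 217028_at, was lower without tet in both clones at 12 h, by 0.09 in E10 (change -0.09) and 0.60 in E14 (change -0.60), and its change of -0.34 (95% confidence interval -0.60 to -0.09) was not called (adjusted p = 0.966 from limma). In E14 at 12 h the RNA integrity measure was 0.46 without and 1.02 with tet, and its part in the difference between the clones was not tested.

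Counted over all members, 3 of 12 probe sets (CXCL8 202859_x_at, CXCR4 217028_at and 209201_x_at) were called at 24 h, all of them lower, against 11.7% of all probe sets in either direction and 6.34% lower. The median change of the 12 was -0.34, against 0.01 over all probe sets. Without clone E10, without clone E14 and without the E14 arrays at 12 and 24 h, each group at 24 h kept 1 array. Fewer probe sets of the whole array were then called, and of the members only CXCL8 202859_x_at. The change of CXCR4 217028_at was -0.70, -0.64 and -0.64 in these 3 settings and was not called. Without those E14 arrays, which left 4 residual degrees of freedom, the changes of CXCR4 217028_at and 209201_x_at were -0.64 and -0.72. With the RNA integrity measure as a covariate the count was 4, CXCL8 202859_x_at and all 3 CXCR4 probe sets. The adjusted p of 217028_at and 209201_x_at was then 0.00113 and 0.00117 (limma). Calls over all probe sets rose with this covariate as well, to 2310 higher and 2723 lower, from 1921 and 2258.

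At 48 h all 3 CXCR4 probe sets were lower. For 217028_at the values were 11.18 in E10 and 11.26 in E14 without tet, against 11.67 in E10 and 11.61 in E14 with tet. For 211919_s_at they were 9.17 in E10 and 9.08 in E14 without tet, against 9.81 in E10 and 9.71 in E14 with tet. For 209201_x_at they were 8.96 in E10 and 8.73 in E14 without tet, against 9.54 in E10 and 9.44 in E14 with tet. In every probe set both clones without tet lay below both with tet. Over the 20 arrays centred on each line's mean, 209201_x_at and 211919_s_at had a Pearson correlation of 0.99, so that these 2 are close to 1 reading. Their correlations with 217028_at were 0.66 and 0.62. The changes were -0.42 (standard error 0.12, adjusted p = 0.0183), -0.63 (standard error 0.20, adjusted p = 0.0375) and -0.64 (standard error 0.17, adjusted p = 0.0129), all from limma. Without the line as a block, the adjusted p of 211919_s_at was 0.0589. The RNA integrity measure lay between 0.66 and 0.84 on the 4 arrays of the EVI1 clones at this time.

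In the control lines CXCR4 did not move in a common direction. Without tet, 209201_x_at read 9.02 in P2 and 9.16 in U937T, against 9.29 in P2 and 9.04 in U937T with tet, a change of -0.08 (95% confidence interval -0.44 to 0.29). The EVI1-specific response of the 3 CXCR4 probe sets was -0.36, -0.56 and -0.57 with adjusted p of 0.347, 0.42 and 0.29 from limma. The fall in the EVI1 clones was called, and its difference from the control lines was not.

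**Figure D3:**
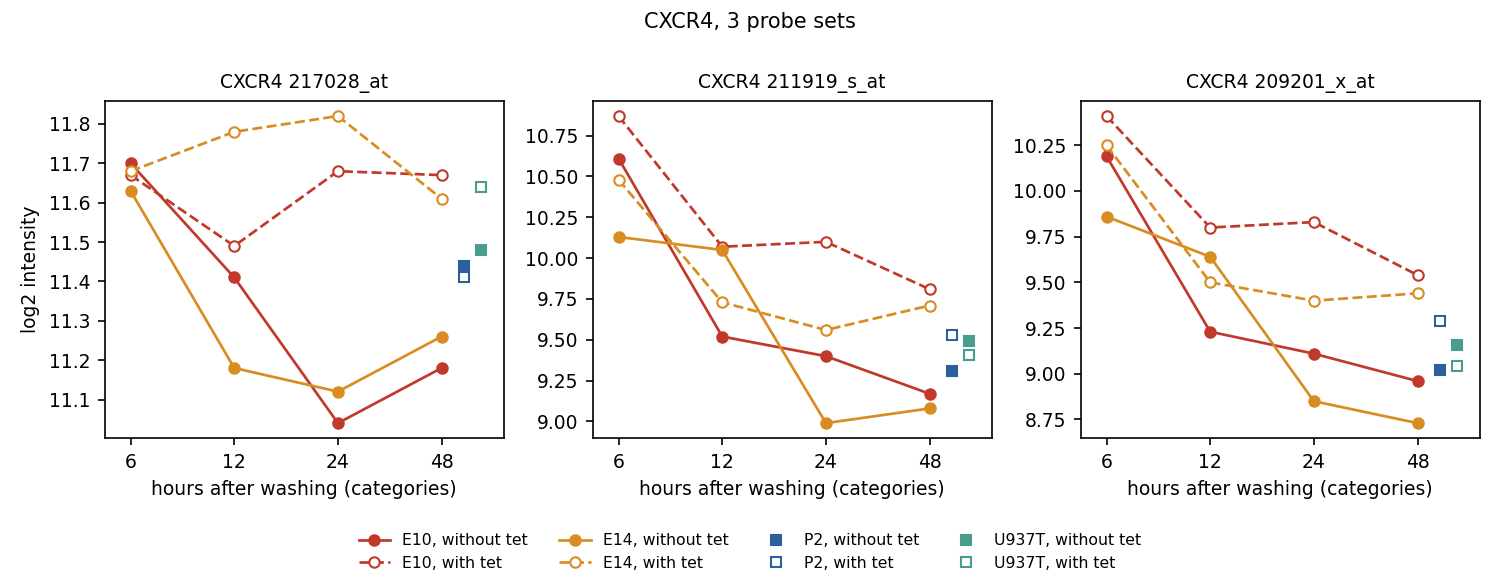
Log2 intensity of the 3 CXCR4 probe sets (vertical axes, of different ranges) by hours after washing (horizontal axis, evenly spaced categories), 1 point an array, filled without tet and open with tet, circles for the EVI1 clones and squares for the control lines. At 24 and 48 h both clones without tet lie below both with tet in all 3 panels, and the E14 points cross at 12 h in 211919_s_at and 209201_x_at.

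Over all members at 48 h, 4 of 12 probe sets were called in the EVI1 clones, the 3 of CXCR4 and CXCL2 209774_x_at, all lower, against 24.6% of all probe sets in either direction and 11.5% lower. Their median change was -0.14, against -0.03 over all probe sets. Without clone E10 or without clone E14, each EVI1 group kept 1 array, and fewer probe sets of the whole array were called. The only member call then left was CXCL2 209774_x_at without clone E10. In the control lines 0 of 12 were called by limma (5.92% of all probe sets). At an unadjusted p under 0.05 (6761 of 35610 probe sets in either direction) 2 were higher, CXCL8 202859_x_at and CXCL16. For the EVI1-specific response 0 of 12 were called by limma (2.95% of all probe sets). At an unadjusted p under 0.05 (5105 of 35610 probe sets in either direction) 4 were lower, CXCL2 209774_x_at, CXCR2 and CXCR4 209201_x_at and 217028_at. The response at 48 h minus that at 6 h gave 0 of 12 (14.2% of all probe sets). At an unadjusted p under 0.05 (9082 of 35610 probe sets in either direction) 2 were lower, CXCL2 209774_x_at and CXCR4 217028_at.

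**Figure D4:**
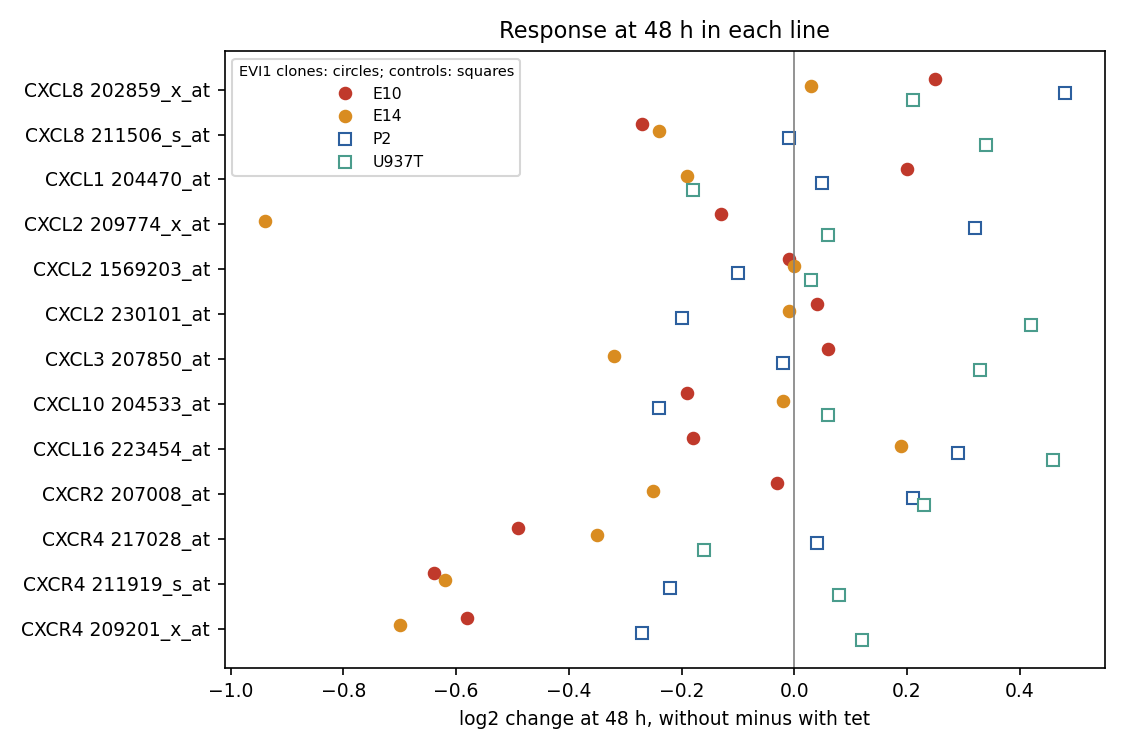
Log2 change at 48 h, without minus with tet (horizontal axis), in each line for the 13 member probe sets (rows), circles for the EVI1 clones E10 and E14 and squares for the control lines P2 and U937T, 1 point a pair of arrays. The 3 CXCR4 rows hold clones between -0.70 and -0.35 and control lines between -0.27 and 0.12, and the single far point of CXCL2 209774_x_at, -0.94, is E14.

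Members also changed over time after washing in the EVI1 clones kept with tet. Of 12 probe sets, 5 fell between 6 and 48 h in the EVI1 clones with tet, against 6.19% of all probe sets in either direction and 3.39% lower. For CXCL8 211506_s_at the values with tet at 48 h were 4.84 in E10 and 4.62 in E14, against 7.26 in E10 and 7.25 in E14 at 6 h. Its log2 change was -2.53, with a standard error of 0.24 (limma, adjusted p = 0.000448). For CXCL8 202859_x_at the values at 48 h were 6.50 in E10 and 7.01 in E14, against 7.99 in E10 and 8.72 in E14 at 6 h, a change of -1.60 (standard error 0.15, adjusted p = 0.000448 from limma). Here both probe sets of CXCL8 gave the same direction, and every array at 48 h lay below every array at 6 h. The change of 202859_x_at between 6 and 24 h was -3.10 in E10 and -3.18 in E14 without tet, against -1.24 in E10 and -1.78 in E14 with tet.

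CXCL10 fell over the same time, its change being -1.31 (limma, standard error 0.27, adjusted p = 0.0152), with changes of -0.76 in E10 and -1.86 in E14. Its adjusted p was 0.104 without clone E14 and 0.0653 with the RNA integrity measure as a covariate. CXCR4 fell by 0.84 in 209201_x_at (adjusted p = 0.0145) and 0.91 in 211919_s_at (adjusted p = 0.0227), whereas 217028_at changed by -0.04 (95% confidence interval -0.29 to 0.22). The call of 209201_x_at was lost without clone E10 (adjusted p = 0.208) and without clone E14 (adjusted p = 0.0691), and that of 211919_s_at without clone E10 (adjusted p = 0.222), all from limma. The 4 arrays at 6 h had RNA integrity measures between 0.19 and 0.65, and the 4 arrays of the clones at 48 h between 0.66 and 0.84. Both CXCL8 and both CXCR4 calls held with this measure as a covariate. No culture that had not been washed was analysed here, so that an effect of washing and one of time in culture cannot be told apart.

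Between the lines themselves no member was called. Averaged over 8 matched cultures, 0 of 12 probe sets were called between E10 and E14 (0.104% of all probe sets, limma). An unadjusted p under 0.05 was held by 2 of the 12 and by 6539 of 35610 probe sets. The comparison tests these 2 clones only. CXCL8 202859_x_at was 0.37 lower in E10 than in E14 (change -0.37, standard error 0.08), with an adjusted p of 0.074. Between the EVI1 clones and the control lines with tet at 48 h, 0 of 12 were called (0.00842% of all probe sets, limma) and 0 had an unadjusted p under 0.05.

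The wider CXC family gave no call. Of 17 other CXC ligands and receptors 12 were measured, CXCR1 and CXCL12 among them, and 0 were called at 24 h, at 48 h or in the EVI1-specific response (limma). Of all genes, 6.55% were called higher and 7.81% lower at 24 h, 14.7% and 13.2% at 48 h, and 1.66% and 2.11% in the EVI1-specific response. Measured means only that a probe set passed the intensity filter, and at a low signal a change may not have been detectable. Their EVI1-specific responses lay between -0.34 and 0.31. Of 23 genes of receptor signalling and ligand processing 21 were measured. In the EVI1 clones 4 were higher and 3 lower at 24 h, against 6.55% and 7.81% of all genes, and 10 were higher and 5 lower at 48 h, against 14.7% and 13.2%. Their median change at 48 h was 0.34, against -0.04 over all genes. Among those higher at 48 h were PREX1, a Rac activator downstream of G protein signals, at 1.32 (adjusted p = 3.69e-06), and PIK3CG, the lipid kinase that these receptors activate, at 1.16 (adjusted p = 8.57e-06), both of which also rose in the control lines, by 0.64 and 0.59.

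The EVI1-specific response of this list had 1 of 21 genes higher and 4 lower, against 1.66% and 2.11% of all genes. ARRB1, an arrestin that turns off and internalizes receptors, rose by 0.64 (adjusted p = 0.028 from limma). The proteases PRTN3, ELANE and CTSG of neutrophil granules, which can trim CXC ligands, fell by 1.51, 1.22 and 1.03 beyond the control lines (adjusted p = 0.000731, 0.0022 and 0.0182 from limma). GNG2, a G protein subunit, had an EVI1-specific response of -1.07 (adjusted p = 0.0203), with a rise of 1.47 in the control lines.

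Of 20 factors and feedback targets of NF-kB, 18 were measured. In the EVI1 clones 2 were higher and 1 lower at 24 h, against 6.55% and 7.81% of all genes, and 6 were higher and 2 lower at 48 h, against 14.7% and 13.2%. The EVI1-specific response gave 0 calls (limma), against 1.66% higher and 2.11% lower of all genes, and the control lines gave 0 as well, against 4.01% and 3.64%. The inhibitor NFKBIA rose by 0.65 at 24 h (adjusted p = 0.0355 from limma) and by 1.00 at 48 h (adjusted p = 0.00119). Changes over the whole list ran from -0.66 to 0.66 at 24 h and from -1.16 to 1.00 at 48 h, so that others moved as far. In the control lines they ran from -0.57 to 0.57. A link between NFKBIA and the level of CXCL8 was not tested.

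Of 16 factors of CXCL8 transcription and mRNA decay, 15 were measured, and 2 were higher and 3 lower at 24 h, against 6.55% and 7.81% of all genes. ZFP36, which binds AU-rich mRNAs such as that of CXCL8 and speeds their decay, rose by 0.75 at 24 h (adjusted p = 0.0015 from limma). The AP-1 subunit FOSL1 and the transcription factor EGR1 each fell by 1.15 at 24 h (adjusted p = 1.51e-05 and 0.00593 from limma), and FOS rose by 0.65 (adjusted p = 0.0147). At 48 h 7 genes of this list were higher and 4 lower, against 14.7% and 13.2% of all genes, ZFP36 being 1.89 higher and FOSL1 0.92 lower (change -0.92). Among control lines 2 were higher and 2 lower without tet, against 4.01% and 3.64% of all genes, with changes between -1.43 and 1.59 over the list, and ZFP36 rose by 0.77 (limma, adjusted p = 0.00338). For the EVI1-specific response 2 genes were higher, against 1.66% of all genes, ZFP36 by 1.12 (adjusted p = 0.00415) and JUN by 0.89 (adjusted p = 0.0152), and 0 lower, against 2.11%. The lowest EVI1-specific response of the list was -0.39, so that FOSL1, at -0.92 in the EVI1 clones at 48 h, fell in the control lines as well. A link between these factors and the level of CXCL8 was not tested.

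The genes whose levels ran most like a member's were sought over the 20 arrays, centred on each line's mean, for members whose brightest probe set spanned at least 1 log2 unit. CXCL8 202859_x_at was most like PTGER4, a receptor for prostaglandin E2 (r = 0.90), TMEM170B (r = 0.89) and CEBPA, a myeloid transcription factor (r = 0.87). CXCL10 was most like the activation marker CD83 (r = 0.91), NAMPT (r = 0.90) and the complement receptor C3AR1 (r = 0.90). CXCL2 209774_x_at was most like YJU2, STAMBPL1 and THOC6 (r = 0.92 each). These Pearson correlations describe arrays that share lines, times and media.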

How the data were processed

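RNA of 20 cultures of 4 U937-derived lines was hybridized to Affymetrix HG-U133 Plus 2.0 arrays. The deposited values are log2 intensities per probe set, made by the authors with Robust Multi-array Analysis (background correction, quantile normalization, median polish), and were used without further scaling. Precision is limited by how many arrays there were.

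Of 54675 probe sets, 41097 carried 1 gene symbol in the platform annotation, and those with several (1801) or none (11777) were left out. The study's filter (a mean log2 intensity of 3 or more in each EVI1 clone at 24 and 48 h and each control line at 48 h) left 35610, and 1 probe set a gene (highest mean) gave 17860 genes for the lists. limma 3.58.1 in R 4.3.3 was fitted to all 20 arrays with 10 groups and the line as a fixed block (8 residual degrees of freedom), since each line was cultured without and with tet. Across probe sets the E10 minus E14 differences of the 8 cultures had a median correlation of 0.11 (-0.22 to 0.64), and those of P2 minus U937T one of -0.24. The comparison of EVI1 clones with control lines had no block. P-values were adjusted over all 35610 by the Benjamini-Hochberg method, and probe sets with an adjusted p under 0.05 were called.

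Alternatives were no filter or a mean of 5 or more, 1 probe set a gene, array centring, trend and robust variance, no block, the arrays at 48 h alone, the RNA integrity covariate, leaving out the E14 arrays at 12 and 24 h or each line, and a 2-fold minimum. Named genes are all member probe sets, up to 4 called genes a list by EVI1-specific response, and the 3 genes most like a member. ARRB1, the fifth of its list, list genes and markers named at 24 or 48 h, and the letters TGACTCA, were chosen after their values were seen. The members and lists were chosen with earlier results of these data known.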

Additional observations from a re-analysis of the deposited data

Results flagged for a closer look

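The response of CXCL8 to tet withdrawal differed between time points by a test of the difference itself. For 202859_x_at the response of the EVI1 clones at 48 h minus that at 24 h was 1.57 (standard error 0.22, adjusted p = 0.00327 from limma), in a comparison added after the values had been seen. The same difference was 0.30 (standard error 0.33, adjusted p = 0.76 from limma) for 211506_s_at. No control line was measured at 24 h. Groups held 2 arrays each, too few to test for a single array far from the rest.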

How the results depend on the processing

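For the counts of member probe sets called, 126 of 144 values over 11 comparisons stayed within 1.5 times the reported count, and 18 did not. Where no member was called, the count was 0 in every setting, and these values are among the 126. A fold minimum could not change such a count. All 18 changes fell in the comparisons with a call, so that the tally over all comparisons overstates how stable the calls were. Without the replicate block on line, the count at 12 h was 0. Without the E14 arrays at 12 and 24 h, it was 0 at 12 h and 1 at 24 h. With 1 probe set a gene, it was 2 at 48 h and 3 for the clones with tet at 48 h minus 6 h. With a minimum of 2-fold, it was 1 at 24 h, 0 at 48 h and 3 over time with tet. Leaving out each line in turn gave 0 to 1 at 12 h, 1 to 3 at 24 h, 0 to 4 at 48 h, 3 to 5 over time with tet and 0 to 1 for the response at 48 h minus that at 24 h. Leaving out E10 or E14 left 1 residual degree of freedom, and leaving out a control line changed none of these counts. Of 164 values for 14 called member results, 137 stayed called, 27 did not and 0 changed sign. Another filter, 1 probe set a gene, another variance estimate or no block leaves the change itself the same, so that its sign could not differ there. For the lines, the block changed no member call other than those of CXCL8 at 12 h and CXCR4 211919_s_at at 48 h. Where a call was lost other than by leaving out arrays or by the fold minimum, the cause was not tested. Low signals limit CXCL1, CXCL3 and the dim CXCL2 probe sets, and no array of a control line before 48 h was analysed.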
